A study of Mus musculus with 12 samples.

Results

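The genes described here are 42 genes of the contractile machinery of skeletal muscle, read in 12 subcutaneous SVR tumors. They were chosen by name, and all 42 were found among the 54232 genes of the deposited count table. SVR is a mouse angiosarcoma cell line, labelled with the strain C57BL/6, which was injected under the skin of the flank of athymic nude mice. The mice lack a thymus and most T cells, and their age is not given in the labels. Treatment was daily oral gavage with vehicle (control, 3 tumors), trametinib at 1 mg/kg (3 tumors), cediranib at 3 mg/kg (3 tumors) or trametinib at 1 mg/kg together with cediranib at 3 mg/kg (combination, 3 tumors). Trametinib inhibits the kinase MEK, and cediranib inhibits the VEGF receptors. RNA of each whole tumor was enriched with exome capture probes, and how well the probes match each mouse gene was not tested. Tumor cells and host tissue are both of mouse origin and are not separated by the alignment. The labels give 3 tumors per group but do not say how many mice carried them, so p-values measure the spread between these tumors. Which of the study's treatment experiments the tumors came from, and how long each was treated, are not stated in the sources used here.

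Skeletal muscle fibers shorten when myosin heads of the thick filament pull on actin of the thin filament. Calcium released from the sarcoplasmic reticulum opens the thin filament through the troponin complex, and creatine kinase and glycogen breakdown supply ATP. Fast and slow fibers use different genes for most of these parts, with Myh4, Myh1 and Myh2 as the fast myosin heavy chains, Myh7 as the slow one, and Myh3 and Myh8 as the embryonic and perinatal ones. In mice a thin sheet of skeletal muscle, the panniculus carnosus, lies beneath the skin, and it is known as a muscle of mainly fast fibers. SVR cells are endothelial, and the question addressed by the comparison was how much transcript of muscle genes each tumor sample held and whether it moved with treatment.

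The promoters of 4 genes are shown because these genes open the results: Acta1 (skeletal muscle actin), Ckm (muscle creatine kinase), Myh4 (the fastest myosin heavy chain) and Des (desmin, the intermediate filament that ties myofibrils together). Each is the 250 bases before the gene's start in RefSeq on GRCm38.p6, written 5′ to 3′ along the gene, and capitals mark matches to 4 motifs known from muscle genes.
Acta1 (chr8:123894776-123895025, minus strand): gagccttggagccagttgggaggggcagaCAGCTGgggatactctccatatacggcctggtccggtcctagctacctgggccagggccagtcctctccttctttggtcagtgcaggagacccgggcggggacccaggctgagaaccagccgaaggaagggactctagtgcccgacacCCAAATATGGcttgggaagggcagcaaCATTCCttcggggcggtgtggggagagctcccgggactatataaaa
Ckm (chr7:19410844-19411093, plus strand): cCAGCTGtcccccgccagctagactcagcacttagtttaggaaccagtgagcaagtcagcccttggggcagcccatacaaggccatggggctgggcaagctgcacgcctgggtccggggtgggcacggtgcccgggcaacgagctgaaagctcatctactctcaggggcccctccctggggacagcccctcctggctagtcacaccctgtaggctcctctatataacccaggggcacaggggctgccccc
Myh4 (chr11:67237562-67237811, plus strand): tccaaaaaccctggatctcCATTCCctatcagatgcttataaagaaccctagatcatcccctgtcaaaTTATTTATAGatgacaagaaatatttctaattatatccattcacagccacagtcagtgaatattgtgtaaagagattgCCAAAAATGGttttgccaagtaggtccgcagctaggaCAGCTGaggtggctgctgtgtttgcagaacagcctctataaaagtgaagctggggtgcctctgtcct
Des (chr1:75360042-75360291, plus strand): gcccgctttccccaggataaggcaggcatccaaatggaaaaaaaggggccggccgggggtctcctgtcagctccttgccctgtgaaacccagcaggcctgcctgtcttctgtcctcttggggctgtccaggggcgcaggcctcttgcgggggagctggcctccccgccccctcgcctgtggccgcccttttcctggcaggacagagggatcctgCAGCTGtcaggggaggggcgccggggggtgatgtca

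The motifs searched on both strands were the E-box CAGCTG, which myogenic regulators bind, the M-CAT motif CATTCC, the CArG box and the MEF2 site. The Acta1 promoter held an E-box at positions -221 to -216 from the start, a CArG box at -73 to -64 and an M-CAT motif at -46 to -41. The Myh4 promoter held all 4 motifs. Ckm and Des each held 1 E-box, which in Ckm lay at the far end of the window. Of the 42 genes 33 had a promoter in the RefSeq table. Among these 33 the E-box was present in 14 (42.4%), compared to 14.7% of all 27025 genes in the table, and the M-CAT motif in 10 (30.3%), compared to 14.4%. The MEF2 site was present in 7 (21.2%, compared to 3.42% of all genes) and the CArG box in 4 (12.1%, compared to 1.62%). At least 1 of the motifs was present in 26 of the 33 promoters and none in the other 7. A match is only a description of the letters in this window.

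Libraries held 9478865 to 11666094 counts. Levels are given as CPM, a gene's count relative to the TMM-scaled size of its library, and at these depths the limit that a count of 0 allows, 3 counts, was 0.251 to 0.349 CPM in a library, for counting error only. A low-count filter left 12897 genes for testing, of which 34 were muscle contractile genes. A gene was called at an FDR under 0.05 (Benjamini-Hochberg over all genes tested, quasi-likelihood test of edgeR) and a log2 fold change of 1.5 or more in either direction. The overall biological coefficient of variation over all genes was 27.2%.

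Muscle transcripts were concentrated in a few tumors and not in one treatment. Summed over the 42 genes, the level was 700 CPM in control 1, 22580 in control 2 and 56.3 in control 3. In trametinib treated tumors it was 371, 34810 and 2835 CPM in replicates 1, 2 and 3. In cediranib treated tumors it was 248, 64.3 and 313 CPM, and in combination treated tumors 1087, 104 and 476 CPM. Control 2 and trametinib 2 therefore stood far above the other 10 tumors, with trametinib 3 next, and the lowest tumor of all, control 3, was a vehicle tumor. These genes took 2.18% of all counts in control 2 and 3.16% in trametinib 2, but 0.00533% in control 3. The highest tumor exceeded the lowest by 401-fold within control, 93.8-fold within trametinib, 4.87-fold within cediranib and 10.4-fold within the combination. Group means (± SD, n = 3) were 7780 ± 12820 CPM in control, 12670 ± 19210 in trametinib, 208 ± 129 in cediranib and 556 ± 496 in combination treated tumors, so that the SD exceeded the mean in control and trametinib. In tissue lysates fewer muscle cells and less of each RNA per cell cannot be told apart.

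**Figure D1:**
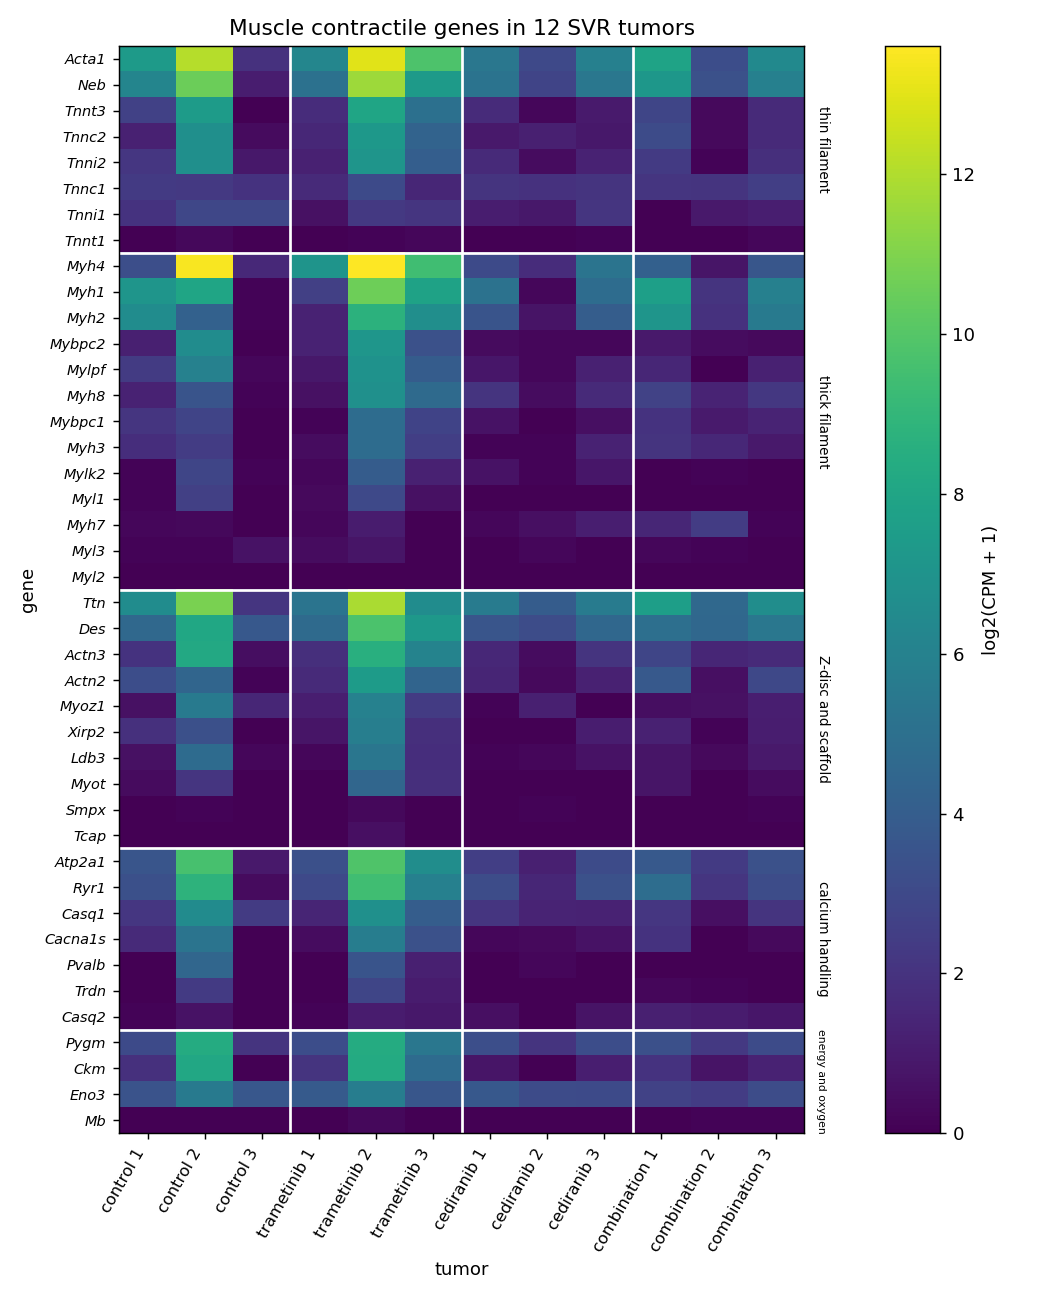
Each row is 1 of the 42 muscle genes, grouped by role, and each column 1 of the 12 tumors; the colour gives log2(CPM + 1). The columns of control 2 and trametinib 2 stand out in nearly every row, and trametinib 2 was the highest tumor for 35 of the 41 genes with a count.

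The same pair of tumors led most of the genes. Trametinib 2 was highest for 35 of the 41 genes with at least 1 count and control 2 for 4. For 30 of the 42 genes, control 2 and trametinib 2 were the 2 highest tumors, and trametinib 3 held rank 3 for 26 of the 34 tested genes. The markers that define the tissue, Acta1 and Ckm, followed this order. Acta1 (8:123891769-123894751) was at 172, 4329 and 2.82 CPM in control, 76.3, 8298 and 895 in trametinib, 41.4, 6.99 and 60.6 in cediranib and 234, 8.34 and 85.7 in combination treated tumors. Ckm (7:19404776-19422841) was at 2.64, 290 and 0 CPM in control, 3.17, 314 and 25.8 in trametinib, 0.698, 0 and 1.24 in cediranib and 2.92, 0.634 and 1.48 in combination treated tumors. Both markers were thus high in control 2 and trametinib 2, and Ckm had no count in control 3 or cediranib 2, which had the lowest summed levels. Coordinates here are those of the deposited table on GRCm38.

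**Figure D2:**
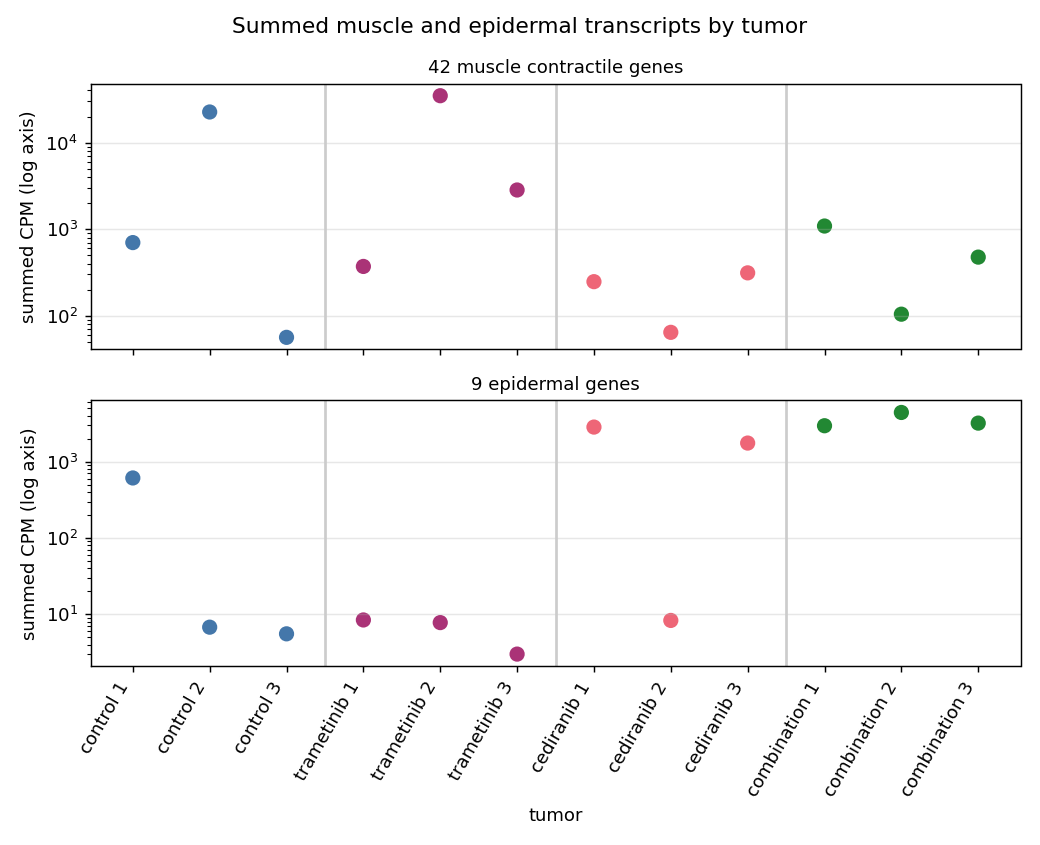
The upper panel plots the summed CPM of the 42 muscle genes in each tumor and the lower panel that of 9 epidermal genes, both on log axes. Muscle levels ran from 56.3 CPM in control 3 to 34810 in trametinib 2, whereas epidermal levels were at 8.43 or below in 6 tumors and at 612 or above in the other 6.

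Thick filament genes, the myosins and their partners, had the largest summed CPM of any role in control 2 and trametinib 2, not scaled by gene length. Per kilobase of gene model, Acta1 of the thin filament was the highest gene in these tumors. Together the 13 thick filament genes summed to 11740 CPM in control 2 and 14930 in trametinib 2, compared to 3.23 in control 3. Myh4 (11:67238029-67260446) was at 8.59, 11280 and 2.02 CPM in control, 132, 12490 and 693 in trametinib, 7.18, 2.36 and 36.6 in cediranib and 17.1, 0.725 and 11.3 in combination treated tumors. Control 1 did not share this gene's excess, although its summed muscle level was above that of trametinib 1. Myh1 (11:67200052-67224575), the fast IIX chain, was at 136.5, 252 and 0.101 CPM in control, 4.89, 1563 and 225 in trametinib, 34.4, 0.189 and 27.1 in cediranib and 201, 3.17 and 61.0 in combination treated tumors. Myh2 (11:67171027-67197517), the fast IIA chain, was at 95.6, 17.8 and 0.101 CPM in control, 1.45, 428 and 105 in trametinib, 10.5, 0.661 and 15.2 in cediranib and 134, 2.81 and 46.5 in combination treated tumors. For Myh2 control 2 was below control 1, combination 1, combination 3 and trametinib 3, although it was the second highest tumor for Myh4. The perinatal chain Myh8 was at 114 CPM in trametinib 2, 25.5 in trametinib 3 and 10.6 in control 2, and at 5.55 or below in the other 9 tumors. The slow chain Myh7 was at 0.170, 0.202 and 0 CPM in control, 0.181, 1.05 and 0 in trametinib, 0.200, 0.472 and 1.24 in cediranib and 1.71, 4.26 and 0.0927 in combination treated tumors. Among the light chains, Mylpf, the fast regulatory one, was at 4.17, 63.0 and 0.202 CPM in control, 0.816, 121.5 and 14.5 in trametinib, 0.798, 0.189 and 1.34 in cediranib and 1.71, 0 and 1.39 in combination treated tumors. Mylpf followed the muscle sum, while Myh7 did not.

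The mixture of myosin heavy chains differed between tumors. As a share of the counts of the 6 heavy chain genes, Myh4 made up 97.5% in control 2, 94.7% in trametinib 1, 85.4% in trametinib 2 and 65.8% in trametinib 3. It made up 3.51% in control 1, 12.9% in cediranib 1, 43.7% in cediranib 3, and 4.74%, 5.06% and 9.16% in the combination treated tumors. In these 6 tumors Myh1 and Myh2 together took a larger share than Myh4, with 94.9% in control 1, 80.8% in cediranib 1, 50.6% in cediranib 3 and 92.4%, 41.8% and 87.1% in the combination treated tumors. Scaled by gene length, the Myh4 share ran from 3.87% in control 1 to 97.7% in control 2. Control 3 and cediranib 2 had 23 and 44 heavy chain counts only, with Myh4 at 87.0% (95% Wilson interval 67.9 to 95.5%) and 56.8% (42.2 to 70.3%). Combination 2, with 158 counts, had the highest Myh7 share at 29.7% (23.2 to 37.3%), and the interval of cediranib 2, at 11.4% (4.95 to 24.0%), overlaps it. Intervals cover counting error only. The ratio of Myh4 to Acta1 counts was 2.60 in control 2 and 1.51 in trametinib 2 but 0.0498 in control 1 and 0.0733 in combination 1. It did not order every tumor as the Myh4 share did, with 0.338 in cediranib 2 and 0.604 in cediranib 3. These heavy chain genes lie side by side on chromosome 11, Myh7 apart, and are close in sequence, and how the counting treated reads that match several of them is not stated in the sources used here.

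The tumors also differed in transcripts of epidermis, the tissue above the site of injection. The summed CPM of 9 epidermal markers (Krt14, Krt5, Krt1, Krt10, Krt15, Dsp, Dsg1a, Sfn and Trp63), all detected, was 612, 6.78 and 5.55 in control, 8.43, 7.78 and 3.01 in trametinib, 2840, 8.31 and 1753 in cediranib and 2957, 4413 and 3200 in combination treated tumors. In the 6 tumors at or above 612 CPM the Myh4 share was 3.51 to 43.7%, and in the other 6, at or below 8.43 CPM, it was 56.8 to 97.5%. The intervals of cediranib 2 and cediranib 3 overlap at this border. The 12 points fall into separate clusters, and all 3 trametinib and all 3 combination treated tumors lie in opposite ones, so the relation was not tested and the treatment and the epidermal content of these groups cannot be told apart. Within control, control 1 was the only tumor of high epidermal level and had the lowest Myh4 share of the 3. Within cediranib, the tumors of high epidermal level, cediranib 1 and cediranib 3, had lower Myh4 shares than cediranib 2.

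**Figure D3:**
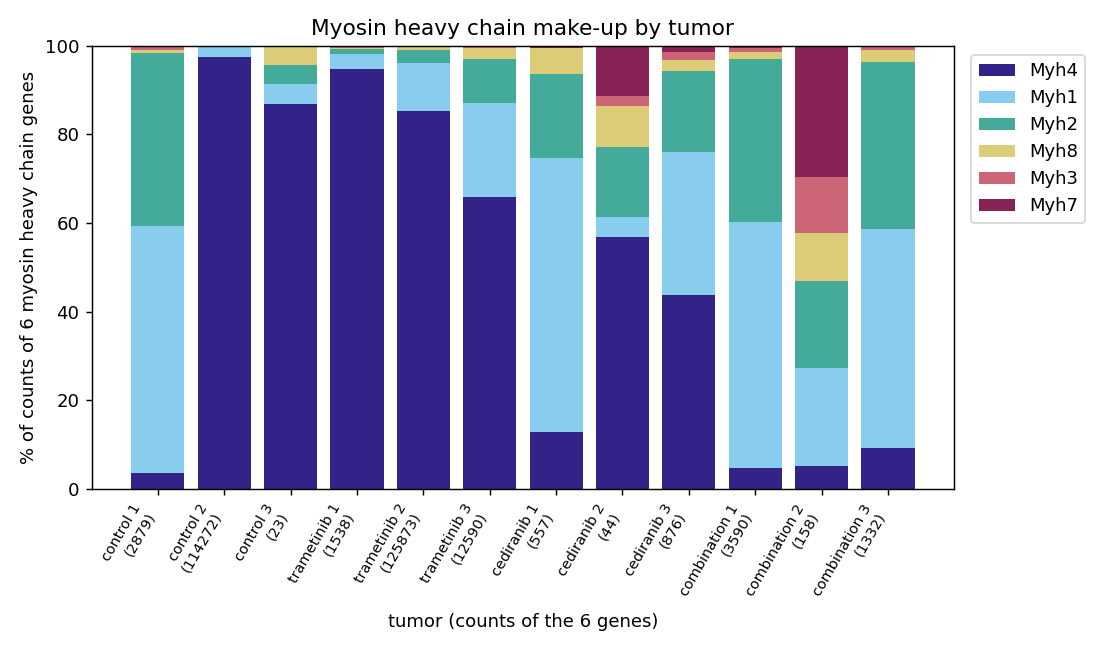
Stacked bars give the percent of counts of 6 myosin heavy chain genes in each tumor, with the number of counts in brackets. Myh4 filled 65.8 to 97.5% of the bars of control 2 and the trametinib treated tumors, and Myh1 with Myh2 filled 94.9% in control 1 and 92.4% in combination 1.

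Thin filament genes followed the summed level, with the exception of the slow troponins. Neb, the giant ruler protein of the thin filament, was at 1507 CPM in control 2 and 3171 in trametinib 2, and from 1.11 to 172 in the other 10 tumors. Of the calcium sensors, fast Tnnc2 was at 1.36, 110 and 0.303 CPM in control, 1.90, 155 and 19.5 in trametinib, 0.898, 1.32 and 0.860 in cediranib and 7.66, 0.272 and 2.13 in combination treated tumors. Its slow counterpart Tnnc1 was at 3.996, 3.74 and 2.92 CPM in control, 2.08, 7.20 and 1.76 in trametinib, 3.19, 2.83 and 3.15 in cediranib and 3.33, 3.08 and 4.82 in combination treated tumors. Tnnc1 thus lay within 1.76 to 7.20 CPM in all 12 tumors while Tnnc2 ranged from 0.272 to 155.

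The inhibitory subunits showed the same contrast. Fast Tnni2 was at 3.40, 108 and 0.807 CPM in control, 1.36, 138 and 16.0 in trametinib, 2.09, 0.378 and 1.43 in cediranib and 4.03, 0.0906 and 2.59 in combination treated tumors. Slow Tnni1 was at 2.98, 6.58 and 6.56 CPM in control, 0.544, 3.72 and 3.34 in trametinib, 1.10, 0.850 and 3.25 in cediranib and 0, 0.906 and 1.20 in combination treated tumors. Control 3, the tumor of lowest muscle sum, was level with control 2 for Tnni1. The tropomyosin-binding subunit Tnnt3, the fast form, was at 5.27, 178 and 0 CPM in control, 2.27, 253 and 31.1 in trametinib, 2.19, 0.189 and 0.955 in cediranib and 6.15, 0.272 and 2.13 in combination treated tumors. Its slow form Tnnt1 had 8 counts over all 12 tumors.

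Summed over the fast list of 15 genes, the level was 275, 13380 and 10.8 CPM in control, 161, 16820 and 1303 in trametinib, 69.0, 10.4 and 96.7 in cediranib and 395, 14.4 and 143 in combination treated tumors. Summed over the slow list of 8 genes it was 10.6, 17.3 and 10.1, then 3.35, 40.7 and 11.9, then 5.59, 4.34 and 8.88, and 9.58, 10.4 and 8.62 CPM in the same order. The fast sums spanned 10.4 to 16820 CPM and the slow sums 3.35 to 40.7 CPM. Genes of neither list, Acta1, Ttn and Neb among them, made up the rest of the muscle sum, so that in trametinib 2 the fast list held 16820 of 34810 CPM. The ratio of fast to slow sums was 774 in control 2, 414 in trametinib 2 and 110 in trametinib 3, and from 1.07 to 48.0 in the other 9 tumors. Without the myosin heavy chains the same 3 tumors had ratios of 107, 59.0 and 23.7, and the other 9 from 0.850 to 7.17. The lists hold genes of different length, so these sums compare tumors and not genes. In trametinib 2 the slow myosin binding protein C, Mybpc1, held 26.8 of the 40.7 CPM of the slow sum, whereas Tnnc1 stayed within 1.76 to 7.20 CPM in all tumors. Whether the ratio reflects fiber type was not tested.

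Genes of the Z-disc and scaffold, which anchor the filaments, were highest in trametinib 2 for all 10 of the group. Ttn, the molecular spring titin, was at 1849 CPM in control 2 and 3747 in trametinib 2, and from 3.33 to 198 in the other 10 tumors. Des (1:75360329-75368579) was at 23.0, 273 and 12.2 CPM in control, 24.9, 856 and 150 in trametinib, 11.2, 8.03 and 22.2 in cediranib and 30.3, 22.3 and 40.8 in combination treated tumors. No tumor was below 8.03 CPM of Des, which smooth muscle also uses. Of the actin crosslinkers, Actn3, used by fast fibers, was at 2.98, 301 and 0.403 CPM in control, 2.54, 388 and 68.1 in trametinib, 1.90, 0.378 and 3.06 in cediranib and 6.15, 1.72 and 2.04 in combination treated tumors. Actn2, used by all fibers and the heart, was at 8.33, 20.9 and 0.101 CPM in control, 2.08, 174 and 19.8 in trametinib, 1.70, 0.283 and 1.34 in cediranib and 12.8, 0.453 and 6.76 in combination treated tumors. Actn3 made up 93.5% of the counts of this pair in control 2 (95% Wilson interval 92.6 to 94.3%), 69.0% in trametinib 2 (67.7 to 70.3%), 26.3% in control 1 (19.6 to 34.4%) and 32.4% in combination 1 (26.2 to 39.4%). It was 77.5% in trametinib 3, 54.9% in trametinib 1, 69.6% in cediranib 3, 79.2% in combination 2 (59.5 to 90.8%) and 23.2% in combination 3. Combination 2 thus lay with the tumors of high Actn3 share, although its Myh4 share was low. The other 3 tumors had 5 to 36 counts of the pair and shares of 52.8 to 80.0%.

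Among the calcium handling genes, the fast calcium pump Atp2a1 was at 11.1, 804 and 0.908 CPM in control, 9.15, 935 and 99.8 in trametinib, 4.79, 1.32 and 7.74 in cediranib and 12.8, 3.90 and 9.45 in combination treated tumors. The release channel Ryr1 was at 443 CPM in control 2 and 690 in trametinib 2, and from 0.303 to 59.9 in the other 10 tumors. Casq1, the fast calsequestrin that stores calcium, was at 3.49, 93.4 and 4.14 CPM in control, 1.63, 114.5 and 15.2 in trametinib, 3.29, 1.61 and 1.43 in cediranib and 3.53, 0.453 and 3.15 in combination treated tumors. Pvalb, the calcium buffer of the fastest fibers, was higher in control 2 (21.4 CPM) than in trametinib 2 (10.6), and was detected elsewhere only in trametinib 3 (1.25) and cediranib 2 (0.189). The energy genes Pygm, the muscle glycogen phosphorylase, and Ckm were at nearly the same level in both, with Pygm at 332 CPM in control 2 and 327 in trametinib 2. Eno3, the muscle enolase, was at 10.3, 45.3 and 12.1 CPM in control, 13.7, 53.4 and 11.5 in trametinib, 12.4, 7.55 and 7.36 in cediranib and 5.44, 4.35 and 7.88 in combination treated tumors.

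The 8 genes below the filter included several of the light chains and small proteins. Myl1, the fast essential light chain, had 120 counts, 61 of them in trametinib 2, and Casq2, the slow calsequestrin, had 72. Myl3 had 23 counts, Tnnt1 8, Smpx 5, and myoglobin (Mb) and Tcap, the cap of titin, 4 each. No count was seen for Myl2, the slow regulatory light chain. Because Mb, Tcap and Myl1 are ordinarily abundant in muscle, their near absence in tumors with 4329 and 8298 CPM of Acta1 is given here as measured, and the part of the capture probes in it was not tested. Per kilobase of gene model, Acta1 (5400 CPM per kb) and Myh4 (2080) had the highest levels in trametinib 2, followed by Atp2a1 (269), Myh1 (246) and Des (228). In combination 1 the order was Acta1 (152 CPM per kb), then Myh1 (31.6), and Myh4 stood in place 12 with 2.85. How these genes are captured can change this order.

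**Figure D4:**
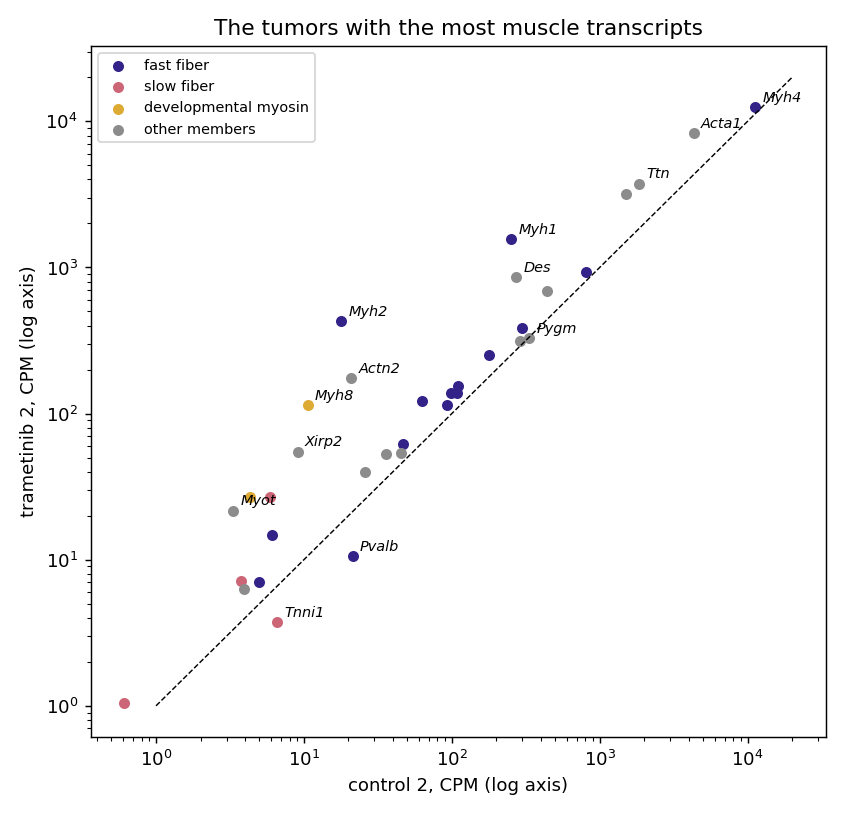
Each point is a muscle gene with more than 3 counts in both tumors, plotted by its CPM in control 2 and in trametinib 2 on log axes, with a dashed line of equal level. Most points lie just above the line, Myh2 (24.0-fold), Myh8 and Actn2 lie furthest above it, and Pvalb lies below it at 0.495-fold.

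Control 2 and trametinib 2 had similar but not identical profiles. Of 35 genes with more than 3 counts in both, 32 were higher in trametinib 2, with a median ratio of 1.56 and an interquartile range of 1.28 to 2.78. The extremes were Myh2, 24.0-fold higher in trametinib 2, and Pvalb, at 0.495 of its control 2 level. Between trametinib 2 and trametinib 3 all 35 genes were higher in replicate 2, with a median ratio of 8.34. Between control 2 and control 1 the median ratio was 19.6, with 1310 for Myh4 but 0.186 for Myh2. Control 1 and combination 1 differed by a median ratio of 0.762 over 29 genes. These ratios compare single tumors and have no replicate error.

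None of the 34 contractile genes was called between trametinib treated and control tumors, where 2.4% of all 12897 genes tested were called. Of the 34 genes 32 had a log2 fold change above 0, with a median of 0.73, compared to 0.01 over all genes, and 1 gene had an unadjusted p under 0.05, against 20.7% of all genes. The DESeq2 Wald test and the likelihood ratio test of edgeR also called 0 of the 34, and 3.29% and 3.57% of all genes. This was Myh8 at 3.53 (SE 1.39, edgeR FDR 0.171). Acta1 had a log2 fold change of 1.04 (SE 1.81, edgeR FDR 0.810), and its sign turned to -1.63 without trametinib 2. The median over the 34 genes was -1.51 without trametinib 2 and 4.58 without control 2. In 25.8% of all genes the 3 values of one group lay wholly above or below those of the other, whereas this held for 0 of these 34.

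Between cediranib treated and control tumors 0 contractile genes and 0% of all genes were called. The log2 fold change was below 0 for 33 of the 34 genes with a median of -4.40, compared to 0.00 over all genes. At an unadjusted p under 0.05 there were 18 contractile genes, all with an edgeR FDR of 0.999, against 4.32% of all genes. The DESeq2 Wald test and the likelihood ratio test called 0 contractile genes, and 0.0698% and 0.109% of all genes. With Trdn and Myot at the bounds given below, the median was -4.10. Without control 2 the median was -0.44. The groups did not overlap for 1 gene, Casq1, against 3.45% of all genes lying lower in this way. Its log2 fold change was -3.99 (SE 1.53, edgeR FDR 0.999), while the nearest tumors of the groups were at 3.49 and 3.29 CPM. Trdn (triadin) and Myot (myotilin) had 0 counts in all 3 cediranib treated tumors and were at least 12.8-fold and 12.1-fold lower than control against a floor of 3 counts over the group. Of the control counts, 39 of 39 for Trdn and 33 of 37 for Myot came from control 2. Without control 2 no bound can be given for Trdn, and the bound of Myot was 1.91-fold.

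The comparison of combination treated and control tumors called 0 contractile genes with edgeR's quasi-likelihood test, with 3.61% of all genes called. The DESeq2 Wald test called 9 and the likelihood ratio test 11, Tnni1, Mylk2, Mybpc2, Atp2a1, Myh4, Myh7, Pvalb, Actn3 and Pygm by both. These tests called 4.74% and 5.33% of all genes. Of the genes named, only Myh7 was higher in the combination (log2 fold change 3.88, SE 1.37, edgeR FDR 0.0925). It had 17, 47 and 1 counts in combination 1, 2 and 3. The median log2 fold change over the 34 genes was -3.57 and 16 had an unadjusted p under 0.05 (27.2% of all genes), but the median was 0.36 without control 2. Tnni1 and Eno3 were lower without overlap, as were 15.7% of all genes. Tnni1 had a log2 fold change of -2.89 (SE 0.86, edgeR FDR 0.0538) and was called without control 1. Eno3 had -1.93 (SE 0.67, edgeR FDR 0.0857). For both genes control 3 lay above control 1, unlike the muscle sum. Pvalb, with 0 counts in the combination, was at least 70.7-fold lower, and its control counts all came from control 2.

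Combination treated compared to trametinib treated tumors also gave 0 called contractile genes, with 0.675% of all genes called by edgeR, and 24 of the 34 at an unadjusted p under 0.05 (17.9% of all genes). The DESeq2 Wald test called 6 and the likelihood ratio test 4, with Mylk2, Mybpc2 and Myh4 in both, and 2.69% and 3.11% of all genes. The median log2 fold change was -4.29, and -1.84 without trametinib 2. For Mylk2, Ckm, Mybpc2, Myh4 and Eno3 every combination treated tumor lay below every trametinib treated one, as for 12% of all genes. Myh4 had the largest of these differences at -8.84 (SE 2.99, edgeR FDR 0.156). Ckm had -6.10 (SE 2.20, edgeR FDR 0.176), Mybpc2 -6.58 (SE 2.21, edgeR FDR 0.154) and Eno3 -2.14 (SE 0.67, edgeR FDR 0.129). Mybpc2, the fast myosin binding protein C, was at 1.28, 98.7 and 0 CPM in control, 1.45, 139 and 9.36 in trametinib, 0.299, 0.189 and 0.191 in cediranib and 0.907, 0.362 and 0.278 in combination treated tumors. Mylk2, the kinase of the regulatory light chain, was at 0.0850, 6.07 and 0.101 CPM in control, 0.181, 14.8 and 1.34 in trametinib and 0.598, 0.0944 and 0.764 in cediranib treated tumors, and had 1 count in the combination treated ones. Trametinib 1 was only just above combination 1 for Ckm, at 3.17 compared to 2.92 CPM.

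Between combination treated and cediranib treated tumors 0 contractile genes were called by edgeR and by the likelihood ratio test and 1, Pvalb, by the DESeq2 Wald test. Pvalb had 0 counts in the combination and 2 in cediranib treated tumors, all in cediranib 2, which is below the floor of 3 counts. The shares of all genes were 2.44% by edgeR's quasi-likelihood test, 3.43% by the likelihood ratio test and 3.09% by the Wald test. An unadjusted p under 0.05 was seen for 0 of the 34 and 23.1% of all genes, with a median log2 fold change of 1.13 (1.11 with genes absent from one group at their bound). Des and Mybpc1, the slow myosin binding protein C, were higher without overlap (14.1% of all genes) and Mylk2 was lower (14.3%). For Mylk2 the nearest tumors, cediranib 2 and combination 2, had 1 count each, so that only library size set their order. Des had a log2 fold change of 1.17 (SE 1.19, edgeR FDR 0.603) and Mybpc1 of 2.34 (SE 1.65, edgeR FDR 0.431). Mybpc1 was at 3.32, 5.87 and 0 CPM in control, 0.0906, 26.8 and 5.77 in trametinib, 0.598, 0 and 0.478 in cediranib and 3.03, 0.997 and 1.58 in combination treated tumors. In the interaction contrast, which asks whether the effect of cediranib differed with trametinib, 0 contractile genes and 0% of all genes were called by edgeR, and 0 contractile genes by the DESeq2 Wald test (0.218% of all genes) and the likelihood ratio test (0.217%). At an unadjusted p under 0.05 there were 0 contractile genes and 7.05% of all genes.

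Trametinib treated compared to cediranib treated tumors was the only comparison of the 7 that called a contractile gene in the edgeR fit. It was Des, which rose by 4.64 on the log2 scale (SE 1.32, edgeR FDR 0.05, just inside the threshold), 1 of 34 genes against 3.49% of all genes called. The call was lost without trametinib 2, without trametinib 3 and without any 1 of the cediranib treated tumors. It was also lost with DESeq2 size factors (edgeR FDR 0.0506), with only these groups in the fit (0.0508) and with the replicate number as a block (0.101). The count of called contractile genes was 21 by the DESeq2 Wald test (4.91% of all genes) and 25 by the likelihood ratio test (5.59%). It was 31 without the low-count filter, a fit for which the share of all genes was not computed. The median log2 fold change over the 34 genes was 5.42 (5.32 with Myot and Trdn at their bounds), and 30 had an unadjusted p under 0.05, against 24.7% of all genes. In 9 of them, Des, Tnnc2, Ckm, Mybpc2, Atp2a1, Tnnt3, Acta1, Myh4 and Actn2, every trametinib treated tumor lay above every cediranib treated one, as in 14.4% of all genes.

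Myh4 had a log2 fold change of 8.17 (SE 2.90, edgeR FDR 0.104), Mybpc2 of 7.71 (SE 2.45, edgeR FDR 0.0732) and Ckm of 7.44 (SE 2.45, edgeR FDR 0.0824). Tnnt3 had 6.42 (SE 2.17, edgeR FDR 0.0894), Acta1 6.41 (SE 2.28, edgeR FDR 0.104) and Actn2 5.87 (SE 1.72, edgeR FDR 0.0558). None of these passed the threshold. Without trametinib 2 the median was 2.67. Without both control 2 and trametinib 2, the edgeR fit called Des and Mybpc2, and the median was 2.60. The values of trametinib 1 lay just above cediranib 3 for Acta1 (76.3 and 60.6 CPM), Des (24.9 and 22.2 CPM) and Atp2a1 (9.15 and 7.74 CPM). Myot and Trdn were at least 71.1-fold and 22-fold higher against the floor, since cediranib treated tumors had 0 counts. Trametinib 1 also had 0 counts of both genes, and without trametinib 2 the bounds were 14-fold and 5.86-fold.

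**Figure D5:**
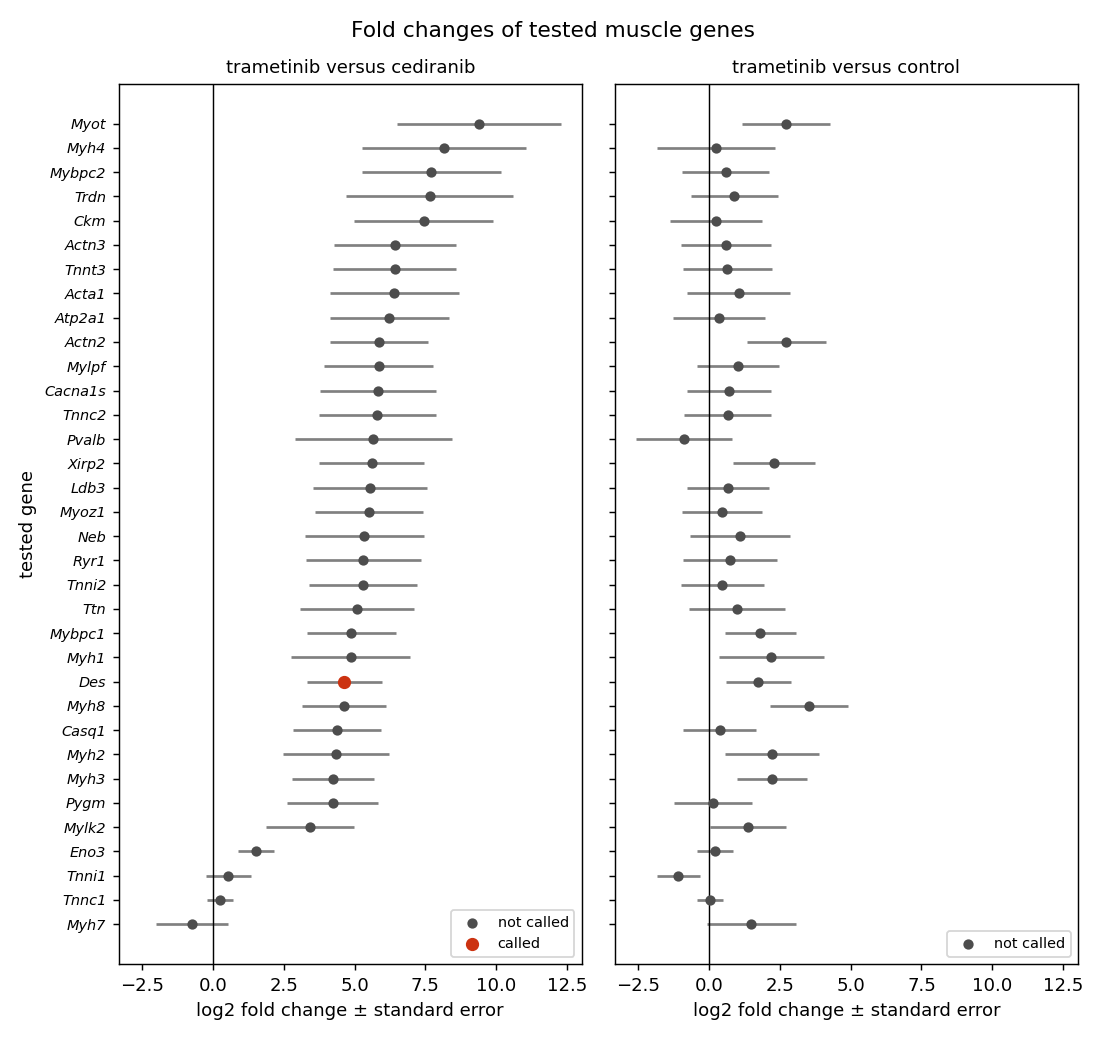
Points are log2 fold changes of the 34 tested muscle genes and bars their standard errors, for trametinib versus cediranib (left) and trametinib versus control (right), with genes ordered by the left panel. Des alone is called on the left (red); on the right 0 genes are called and 32 of 34 points lie above 0.

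Other genes of skeletal muscle were read from a list of 38 that does not overlap the 42. Trametinib 2 was the highest tumor for 26 of the 38 and control 2 for 5, and 20 of the 38 passed the low-count filter. Cavin4, a caveolar protein of muscle, was called in trametinib compared to control (log2 fold change 2.39, SE 0.37, edgeR FDR 0.00283) and compared to cediranib (2.87, SE 0.38, edgeR FDR 0.00094), and was lower in the combination than in trametinib (-1.95, SE 0.36, edgeR FDR 0.0354). It was at 6.21, 8.60 and 3.83 CPM in control, 26.9, 41.1 and 29.6 in trametinib, 2.09, 5.00 and 6.21 in cediranib and 7.36, 8.15 and 9.73 in combination treated tumors. All 3 trametinib treated tumors, trametinib 1 with its low muscle sum included, thus lay above the other 9, and control 2 did not stand apart. The difference between combination and trametinib was not called without any 1 of their 6 tumors. Tpm2 (beta tropomyosin, also made by smooth muscle and fibroblasts) and Klhl40 (a stabiliser of thin filament proteins) were called in trametinib compared to cediranib, at 2.85 (SE 0.56, edgeR FDR 0.00954) and 5.62 (SE 1.34, edgeR FDR 0.0245). Tpm2 was at 34.7, 133 and 80.4 CPM in control, 126, 497 and 188.5 in trametinib, 30.8, 42.8 and 38.5 in cediranib and 77.1, 123 and 51.8 in combination treated tumors. Klhl40 was at 0, 2.63 and 0.303 CPM in control, 1.36, 7.09 and 2.93 in trametinib, 0.0997, 0 and 0.0955 in cediranib and 0.706, 0.906 and 1.11 in combination treated tumors. Both were highest in trametinib 2. The call of Klhl40 was lost without trametinib 2 or any cediranib treated tumor, and that of Tpm2 without cediranib 1. The other 17 tested genes of the list were called in 0 of the 7 comparisons.

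Of the 8 regulators of muscle formation 3 were tested. Myog (myogenin), which drives the last steps of muscle differentiation, was at 11.4 CPM in trametinib 2 and at or below 0.919 in the other 11 tumors, so control 2 with a similar muscle level held 0.607. Myod1 did not exceed 0.809 CPM and Pax7, the marker of muscle stem cells, 0.581 CPM. Pax3 was lower in combination than in cediranib treated tumors (log2 fold change -4.63, SE 1.15, edgeR FDR 0.0332), with 0, 0.181 and 0.463 compared to 7.68, 8.12 and 1.34 CPM. It was at 0.680, 4.45 and 1.82 CPM in control and 0.634, 1.39 and 0 in trametinib treated tumors. This call was lost without any 1 of the combination treated tumors and without cediranib 1 or cediranib 2. Trametinib 2 also had the highest level of Acta2, the smooth muscle actin, at 947 CPM compared to 16.8 to 379 in the other tumors. Myh11, the smooth muscle myosin, was at 2.56 CPM in trametinib 2 and within 1.53 to 8.69 in all tumors.

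Of the 9 cardiac markers 7 were detected. Nppb and Myl7 were at 0 in all 12 tumors and Nppa had a single count. Tnni3, Myh6, Myl4 and Mybpc3 had counts in most tumors and did not exceed 3.44 CPM. Actc1, the cardiac actin, which skeletal muscle also makes, followed the muscle sum, at 17.1 CPM in trametinib 2, 5.77 in control 2 and 2.17 or below elsewhere. Myl2 and Myl3, shared by heart and slow muscle, were at or near 0 as above. Tnnt2, the cardiac troponin T, did not follow the muscle sum. It was at 151, 112 and 162 CPM in control and 148, 66.3 and 309 in cediranib treated tumors, but at 14.4, 11.04 and 8.36 in trametinib and 3.23, 1.90 and 8.34 in combination treated tumors. It was called lower in trametinib and in combination treated tumors compared to control, at -3.65 (SE 0.56, edgeR FDR 0.00284) and -4.98 (SE 0.61, edgeR FDR 0.000995). The 8 adipocyte genes summed to 0.607 to 14.4 CPM and were at 0.607 in control 2 and 3.25 in trametinib 2. The 5 Schwann cell genes summed to 10.6 and 10.7 CPM in those tumors, within the range of 5.60 to 16.1 over all 12. Red blood cell and endothelial genes were highest in control 3 and cediranib 2, the tumors of lowest muscle sum. The 5 red blood cell genes summed to 1787 CPM in control 3 and 568.5 in cediranib 2, compared to 15.04 to 260 in the other 10 tumors. The 7 endothelial genes, which SVR cells and vessels share, summed to 394 and 298 CPM in those tumors and 28.9 to 279 in the others. Combination 2, next in order of muscle sum at 104 CPM, had the lowest level of both lists, at 15.04 and 28.9 CPM. In combination compared to control tumors 4 of 5 red blood cell and 4 of 6 tested endothelial genes were called lower by edgeR, against 1.71% of all genes. In trametinib compared to control tumors 0 and 3 were called lower, against 1.43%. Compared to cediranib, 3 endothelial genes were called lower in the combination (1.16% of all genes) and 2 in trametinib (1.97%), and 0 red blood cell genes in either. The part of any tissue taken along with the tumor in the levels above was not tested.

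Of the 42 genes 18 share exon bases with a gene on the opposite strand in GENCODE M21, among them Des and Ckm, and the strand setting of the counting is not stated in the sources used here. For these genes reads of the partner cannot be told apart.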

How the data were processed

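RNA of 12 SVR tumors was sequenced after exome capture. Per the labels and the submitters' processing notes, reads were converted with bcl2fastq 1.8.4, aligned to GRCm38 with STAR 2.7.1a and assigned to genes with featureCounts 1.6.0. The values deposited by the authors are raw counts per gene that were not normalized. Annotation release, strand setting and handling of multi-mapping reads were not stated in the sources used here. Groups were taken from the sample titles. Genes with low counts were removed with filterByExpr of edgeR 4.0.16 (minimum count 10, minimum total 15), TMM factors were computed, and a quasi-likelihood model was fitted to all 12 libraries in R 4.3.3. Of all counts 99.8% or more fell on tested genes. SEs were computed from each log2 fold change and its F statistic (size of the change over the root of F). Genes were called at an FDR of 0.05 and a log2 fold change of 1.5 in either direction. The fit was tested on simulated data. Counting intervals are Wilson 95% intervals. Shares of isoforms used raw counts, and per kilobase values used the gene lengths of the deposited table.

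Values in every tumor are given for Acta1, Ckm, Des, the tested genes of the fast and slow isoform pairs, called genes and up to 5 genes per comparison whose groups did not overlap, with the largest fold change. Further genes were named after their values were seen. From the other lists at most 4 genes each were described singly, beside the 9 epidermal and 9 cardiac markers, which were all named. The genes, lists and tests were chosen with earlier results of these data known. Promoter sequences are from RefSeq (GRCm38.p6), and gene positions of 31 of the 42 genes match GENCODE M21. Alternatives were DESeq2 1.42.0 (its size factors and Wald test), the likelihood ratio test, library totals, no low-count filter, FDR alone, only the groups compared, the replicate number as a block and leaving out each library. Leaving out control 2 and trametinib 2 together was added after seeing the data.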

Additional observations from a re-analysis of the deposited data

How the results depend on the processing

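The number of called muscle genes depended on the test and on the low-count filter. For trametinib versus cediranib it was 1 with edgeR, 0 with DESeq2 size factors, 21 with the DESeq2 Wald test, 25 with the likelihood ratio test, 3 with only the groups compared and 31 without the low-count filter. For combination versus control it was 0, and 9 with the Wald test, 11 with the likelihood ratio test, 1 with only the groups compared and 28 without the filter. For combination versus trametinib the Wald test gave 6, the likelihood ratio test 4 and no filter 34. For combination versus cediranib the Wald test gave 1 (Pvalb, with 2 counts in these groups) and no filter 11. Without the filter trametinib versus control gave 9, cediranib versus control 31 and the interaction 2. The main edgeR fit called 0% of all genes in cediranib versus control and in the interaction. The cause of these differences was not tested. For the fits without the filter or with only the groups compared, the share of all genes called was not computed. Their counts can therefore not be read as particular to muscle genes. Library totals in place of TMM and FDR alone gave the same counts.

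With 1 library left out, the count was 0 to 6 for trametinib versus cediranib (6 without trametinib 1, 0 without trametinib 2, trametinib 3 or any cediranib treated tumor) and 0 to 1 for combination versus control (1 without control 1). It stayed at 0 in the other comparisons. Without control 2 and trametinib 2, trametinib versus cediranib gave 2. For fits with libraries left out, the share of all genes called was not computed. The log2 fold change of trametinib versus control ran from -1.63 without trametinib 2 to 5.14 without control 2 for Acta1, and from -0.23 to 4.28 for Des. The mean of the fast to slow ratios of the 3 cediranib treated tumors was 8.54, and 2.44 without the myosin heavy chain genes.

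The replicate numbers in the titles did not pair the tumors: correlations of same-numbered tumors ran from -0.22 to 0.36 and not every one exceeded 0.1. With the number as a block, 2 genes were called for combination versus control (Tnni1 and Pvalb) and 2 for trametinib versus cediranib (Mybpc2 and Myoz1, not Des), with 0 in the other comparisons. The share of all genes called in the blocked fit was not computed. The summed CPM of the muscle genes differed by up to 401-fold between the 3 tumors of a group, in control. In the main edgeR fit, differences of several log2 units did not pass the threshold, except for Des in trametinib versus cediranib. The part of the spread in this was not tested.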
